A study of Rattus norvegicus with 35 samples.

Results

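The genes described here belong to the renin-angiotensin and endothelin systems, a pair of peptide hormone systems that raise vascular tone. They were chosen by name, as every probe annotated to Ace, Agt, Agtr1a, Agtr2, Edn1, Ednra, Ednrb or Ece1. Of these 8 genes, 6 had a probe under their symbol, 1 probe each, among 13337 genes with a symbol. No probe was annotated to Ednra or Ednrb, the endothelin receptors, which are not analysed here. The tissue was the left ventricle of the heart, from male Wistar rats whose abdominal aorta had been ligated, a pressure load used to bring about cardiac hypertrophy, or that had a sham operation, with hearts taken 1, 6 or 42 days later. Each of the 6 groups held 6 animals, except the ligated group of day 6, which held 5, so that 35 Illumina BeadChip arrays were available. The ages of the animals and the degree of constriction are not given in the sources used here. Of 12 listed cardiomyocyte markers, 11 had a probe and all 11 were measured above background at each day.

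In the renin-angiotensin system, angiotensinogen (Agt) is the source of angiotensin I, and angiotensin-converting enzyme (Ace) cuts that to angiotensin II, which acts on the type 1 receptor (Agtr1a is 1 of its rodent genes) and the type 2 receptor (Agtr2). In the endothelin system, endothelin-converting enzyme (Ece1) releases endothelin-1 from the product of Edn1, and the peptide acts on the receptors encoded by Ednra and Ednrb. Both peptides constrict vessels and promote growth of heart muscle cells, and both systems are long studied in hearts under pressure load, where local production in the ventricle has been described beside the circulating hormones.

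The promoters of 3 members, Ace, Agtr1a and Edn1, are shown for comparison of their core elements. These 3 are not the set of members that changed, as Edn1 did not pass the test described below on any day. Each runs from 250 bases before to 50 bases after the annotated start in the RefSeq annotation of build GRCr8, 5′ to 3′ on the gene's own strand. They lie at chr10:91409879-91410178 (plus strand) for Ace, chr17:34435383-34435682 (minus strand) for Agtr1a and chr17:22666638-22666937 (minus strand) for Edn1. Capitals mark a match on either strand to 1 of 6 letter patterns that were searched. These were TATAAA for the TATA box, GGGCGG for the core of the GC box, TGANTCA for AP-1 factors, GATAA for GATA factors, TTCNNNGAA for STAT factors and CACGTG for the E-box.
Ace: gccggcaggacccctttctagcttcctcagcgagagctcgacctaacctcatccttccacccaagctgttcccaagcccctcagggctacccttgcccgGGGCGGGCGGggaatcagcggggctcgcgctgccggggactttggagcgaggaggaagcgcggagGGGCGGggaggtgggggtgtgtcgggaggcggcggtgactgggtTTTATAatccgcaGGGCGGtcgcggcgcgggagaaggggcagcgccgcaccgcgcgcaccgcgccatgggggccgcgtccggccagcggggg
Agtr1a: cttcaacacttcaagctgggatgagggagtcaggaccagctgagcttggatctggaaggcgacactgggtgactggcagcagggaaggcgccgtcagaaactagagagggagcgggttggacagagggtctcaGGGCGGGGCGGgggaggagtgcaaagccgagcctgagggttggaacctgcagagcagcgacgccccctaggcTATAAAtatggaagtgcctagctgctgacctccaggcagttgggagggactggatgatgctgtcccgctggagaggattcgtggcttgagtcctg
Edn1: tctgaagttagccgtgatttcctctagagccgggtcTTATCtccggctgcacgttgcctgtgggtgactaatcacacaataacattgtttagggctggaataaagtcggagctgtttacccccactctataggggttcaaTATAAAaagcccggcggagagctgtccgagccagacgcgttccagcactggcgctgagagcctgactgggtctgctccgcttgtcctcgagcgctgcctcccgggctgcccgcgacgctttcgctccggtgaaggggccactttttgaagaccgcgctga
TATAAA was found in these 3 of the 7 members with a RefSeq promoter and not in the windows of Ece1, Agtr2, Ednra or Ednrb, and it was in 14.2% of 33469 RefSeq promoters of 300 bases. Its place differed: it began 42 bases before the start in Ace, where the letters lie on the opposite strand, 45 bases before it in Agtr1a and 110 bases before it in Edn1. GGGCGG occurred 4 times in Ace, the first 2 matches overlapping, and 2 times in Agtr1a, overlapping by 1 base, was also in the window of Ece1, and was absent from that of Edn1. It was in 33.1% of all promoters. Edn1 held 1 GATAA match on the opposite strand, a pattern in 26.5% of promoters. TGANTCA (7.33% of promoters), TTCNNNGAA (8.87%) and CACGTG (6.42%) were in none of the 3. Guanine and cytosine made up 72.3% of the Ace window, 60.7% of that of Agtr1a and 57.3% of that of Edn1. A match describes the letters in the window and says nothing of binding or of a change after ligation.

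Levels are given as log2 of the scanner intensity after background correction and quantile normalisation within a day, and a probe counted as detected on an array at a deposited detection p-value under 0.01. Probes detected on at least 5 arrays of a day were tested, ligated against sham, with limma, and adjusted p-values (Benjamini-Hochberg) under 0.05 over all probes of that day were called. Each day had a BeadChip of its own; these factors cannot be told apart, and levels are compared only within a day. On the BeadChips of days 1 and 42 every ligated sample sat in positions A to F and every sham sample in G to L, which leaves operation and position inseparable there. At day 6 both operations were in both sets. Arrays detected 32.8% to 40.3% of probes, from a median of 30 to 42 beads per probe, and arrays of a day correlated with each other at 0.966 or more. Ligated minus sham, the detected share differed by 2.19 percentage points at day 1, 0.683 at day 6 and -3.00 at day 42. Exact permutation tests gave p = 0.0303, 0.528 and 0.00866 for these. Counts of detected arrays given below are to be read beside these shifts. At day 42 the ligated arrays were dimmer before normalisation, with a mean upper-quartile intensity of 206 against 293 in sham arrays (exact permutation test, two-sided p = 0.00433), a difference of operation and position together. At day 1 the corresponding means were 254 and 219.6 (exact permutation test, p = 0.104). At day 42 the upper quartile ranged from 161 to 273 in ligated and from 259 to 348 in sham arrays. A brightness covariate can therefore take up much of a ligation difference there, and a call lost with it cannot be read as due to brightness. With it 3 probes of all were called at day 42, against 1252 without.

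Of the 6 genes with a probe, Agt and Agtr2 were not detected on any of the 35 arrays. The Agt probe read 101 to 143 on the scanner scale and the Agtr2 probe 80.7 to 137, so that the substrate and the type 2 receptor had no measurable level with these probes in ligated or sham ventricles. The remaining genes were Ace, Agtr1a, Edn1 and Ece1. At day 1 all 4 were tested, and 2 were called, Ace higher and Agtr1a lower in ligated ventricles, where 28.8% of all tested probes were called (13.1% higher and 15.6% lower). At day 6, 3 were tested and 0 were called by limma against 11.3% of all probes, and 2 had an unadjusted p under 0.05, against 28.3%. At day 42, 2 were tested and 0 were called by limma against 15% of all probes, and 1 had an unadjusted p under 0.05, against 33.6%. The median difference of the tested members was 0.38 on the log2 scale at day 1, 0.35 at day 6 and 0.05 at day 42. Over all probes it was -0.03, -0.04 and -0.01. The members tested changed from day to day. Ace at day 1 and Edn1 at days 1 and 6 entered only or mainly through ligated arrays. These medians are thus not compared between days or with all probes. Agtr1a and Ece1 were tested on each day. They differed by -0.54 and 0.16 at day 1, 0.09 and 0.35 at day 6, and -0.23 and 0.33 at day 42. With so few members tested on a day, these counts and medians are given as a description.

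**Figure D1:**
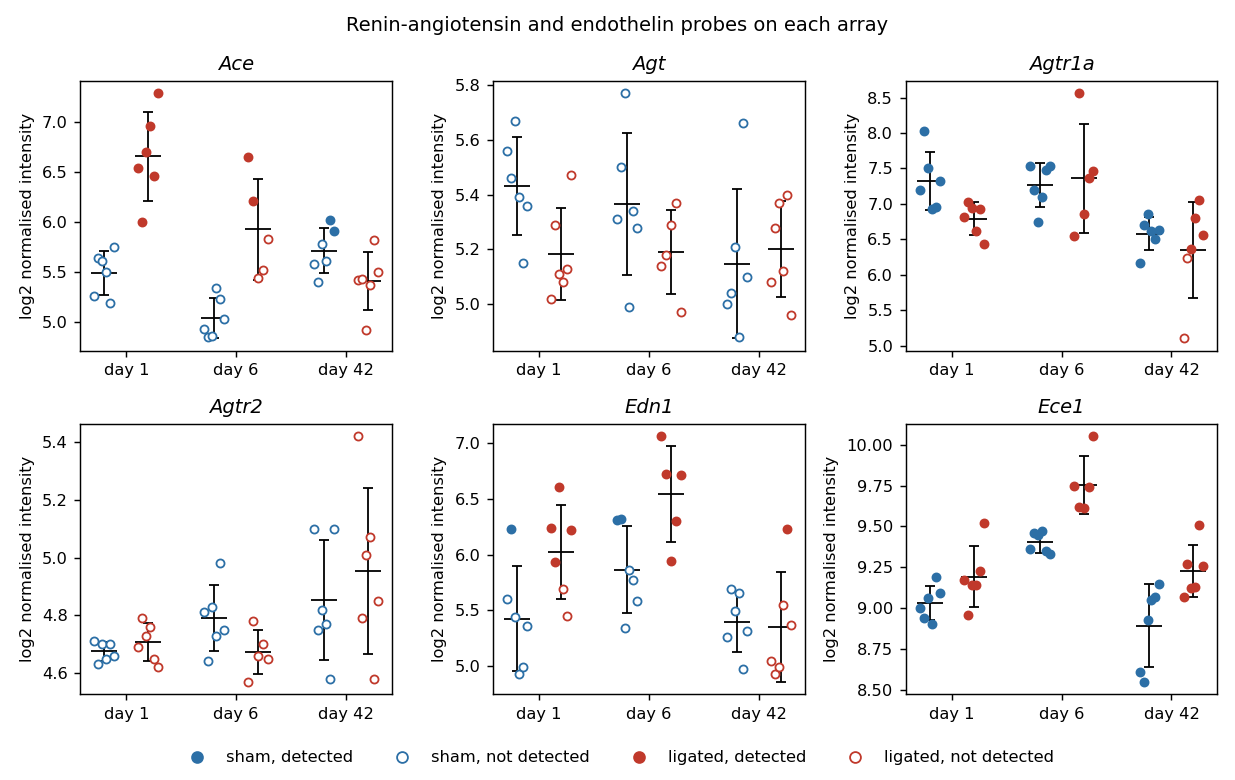
Normalised log2 intensity (vertical axes, a range of its own for each gene) of the 6 members with a probe in all 35 arrays, by day; points are arrays, red for ligated and blue for sham, filled where the probe was detected and open where it was not, with the group mean and SD in black. Ace stood higher in all 6 ligated arrays than in all 6 sham arrays at day 1, whereas the points of Agt and Agtr2 are open throughout.

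Ace, the enzyme that forms angiotensin II and degrades bradykinin, was the member called higher, at day 1. At day 1 its log2 level ranged from 6.00 to 7.29 in the 6 ligated ventricles with a median of 6.62. In the 6 sham ventricles it ranged from 5.19 to 5.75 with a median of 5.55. The groups did not overlap, which was so for 4.63% of probes in this direction; ligated replicate 6 was highest and ligated replicate 2 was nearest to the sham range. The probe was detected on 6 of 6 ligated arrays and 0 of 6 sham arrays, so it entered the test only through the group in which it was high, and had to differ. The means were 6.66 ± 0.44 (SD, n = 6) and 5.49 ± 0.22 (SD, n = 6), a signal difference of 1.17 ± 0.18 (SE, limma adjusted p = 0.00122). Because the sham level was not above background, that value carries no fold of its own, and the change is given as at least 1.50-fold higher after ligation. The signal difference moved with the background correction, from 0.57 without one to 1.66 in the authors' normalised values, and the call held in both.

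At day 6 the Ace levels in the 5 ligated ventricles were 6.65, 6.21, 5.44, 5.52 and 5.83 for replicates 1 to 5. In sham ventricles they ranged from 4.85 to 5.34 with a median of 4.98. The groups did not overlap here either, but only ligated replicates 1 and 2 were detected and no sham array was, so the probe did not enter the test and no fold is given. The mean signals were 5.93 ± 0.50 (SD, n = 5) and 5.04 ± 0.20 (SD, n = 6), a difference of 0.89. Replicates 1 and 2 were the ligated arrays at positions A to F, where the signal difference was 1.55 (2 ligated against 3 sham arrays); at positions G to L it was 0.40 (3 against 3). With no detection filter the limma adjusted p was 0.0428.

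At day 42 the Ace signal ranged from 4.92 to 5.82 in ligated ventricles with a median of 5.43, and 0 of 6 arrays detected it. In sham ventricles it ranged from 5.40 to 6.02 with a median of 5.70, and 2 of 6 arrays detected it. The groups overlapped, the mean signals were 5.41 ± 0.29 and 5.72 ± 0.23 (SD, n = 6 each), and the probe did not enter the test (adjusted p = 0.237 in limma with no filter). The signal difference at day 42 was lower than at day 1 by 1.47 ± 0.26 on the log2 scale (limma adjusted p = 0.00498 over 8986 probes, of which 8.62% were called) and lower than at day 6 by 1.20 ± 0.27 (adjusted p = 0.00681, with 7.52% called). Between days 1 and 6 it differed by -0.28 ± 0.27 (adjusted p = 0.697, with 0.812% called). With array brightness as a covariate the first 2 differences were -1.05 (adjusted p = 0.432, with 0 probes of all called) and -0.88 (adjusted p = 0.0764), so these calls were lost. Both include the day 42 effect, which comes from signals mostly not above background, on the BeadChip with the dimmer ligated arrays, and the probe entered this fit only through the ligated arrays of day 1, so the sizes are those of signals and not of levels.

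Markers of other cell types are given beside Ace, and their part in its change was not tested. Macrophage markers rose for 3 of 8 tested at day 1 (Lgals3, Cd14 and Tyrobp), 8 of 9 at day 6 and 0 of 7 at day 42 (limma, adjusted p under 0.05). Of all genes tested, 12.9% rose and 16.2% fell at day 1, 5.89% and 5.79% at day 6, and 6.82% and 7.82% at day 42, and the counts of every list are to be read against these shares. The summed macrophage level at day 1 was 4966 to 14824 in ligated and 2909 to 6980 in sham ventricles, with Adgre1 and Cx3cr1 not detected on any array of that day. The highest sum, 14824, was that of ligated replicate 3, in which Ace was 6.70. Ligated replicate 6, highest in Ace at 7.29, had a sum of 9047. At day 6 the summed macrophage level was 6270 to 34962 against 4057 to 5661. The highest sums of that day, 23382 and 34962, were those of ligated replicates 1 and 2, its arrays with the highest Ace. At day 42 the summed macrophage level was 1457 to 4701 against 2098 to 3638. Endothelial markers, of the cells in which ACE is best known, were seldom called: Vwf was higher and Emcn lower of 9 at day 1, none of 7 passed at day 6 and Tek alone, lower, of 9 at day 42. The summed endothelial level was 7549 to 13205 in ligated against 9089 to 10797 in sham ventricles at day 1, 8536 to 10143 against 9755 to 11147 at day 6, and 8342 to 11766 against 6971 to 10771 at day 42. Fibroblast markers rose for 2 of 11 at day 1 and 4 of 11 at day 6, and 1 of 11 fell at day 42. Among smooth muscle and pericyte markers 3 of 6 rose and 1 fell at days 1 and 6, and 1 of 6 rose at day 42. Of 9 listed nerve markers 7 had a probe and 3 were tested on each day. Among those tested 3 rose at day 1 (Cnp, Gap43 and Dbh), 1 at day 6 (Dbh) and 0 at day 42. Mbp, S100b, Sox10 and Th were detected on no array of days 1 and 6, and S100b and Th on none of day 42. Of mast cell markers 0 of 3, 1 of 3 (Tpsb2, lower) and 0 of 2 were called, with Kit, Ms4a2, Fcer1a and Hdc detected on no array. In whole tissue a different number of cells of a type and a different amount of RNA per cell cannot be told apart.

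**Figure D2:**
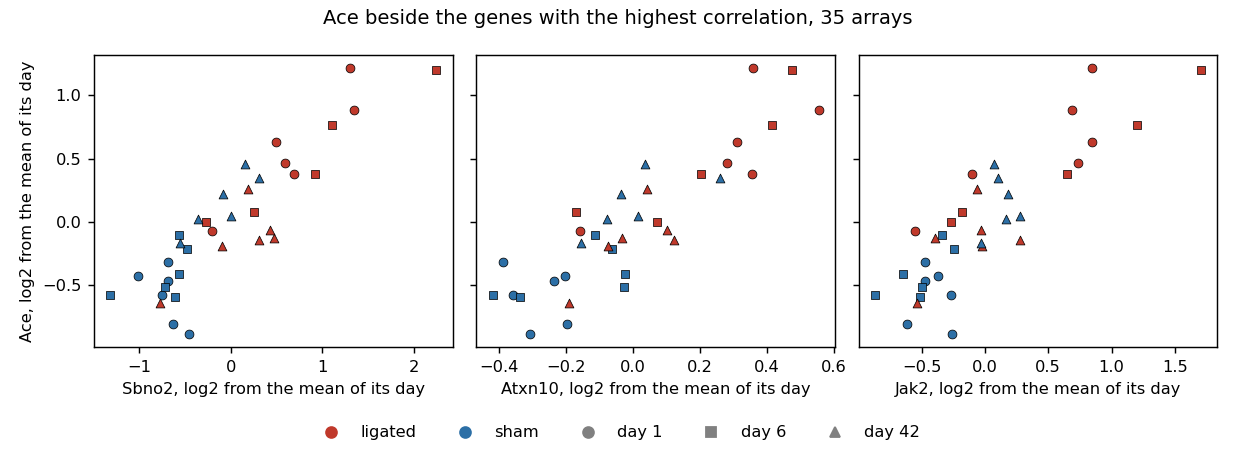
Log2 level of Ace from the mean of its day (vertical axis) against that of Sbno2, Atxn10 and Jak2 (horizontal axes) on 35 arrays; red points are ligated and blue points sham, with circles for day 1, squares for day 6 and triangles for day 42. Pearson's r was 0.892, 0.876 and 0.867, and ligated arrays of days 1 and 6 make up the upper right of each panel. Most of the Ace values are signals not above background.

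The genes whose pattern was most like that of Ace, by Pearson's r over 35 arrays after centring on each day's mean, were Sbno2, Atxn10 and Jak2, out of 5964 probes detected often enough on all 3 days. Their r values were 0.892, 0.876 and 0.867. After centring within each group instead, which leaves only the differences between animals of a group, r was 0.806, 0.706 and 0.763. The arrays share depth, day and operation, and the 3 genes were picked as the highest, so these values are a description with no test. Ace itself was detected only on 6 ligated arrays of day 1, 2 ligated arrays of day 6 and 2 sham arrays of day 42. Most of its values here are thus signals not above background. Sbno2, a transcriptional co-regulator, was itself higher after ligation at day 1 by 1.41 ± 0.22 and at day 6 by 1.56 ± 0.35 (limma adjusted p = 0.00118 and 0.0158), with 0.18 ± 0.21 at day 42 (adjusted p = 0.584). Atxn10 was higher at day 1 by 0.57 ± 0.11 (adjusted p = 0.00326). It did not pass at day 6 (0.36 ± 0.14, adjusted p = 0.107) or day 42 (-0.01 ± 0.10, adjusted p = 0.944). Jak2, the kinase that signals below cytokine receptors and is also activated by angiotensin II, rose at days 1 and 6, as given with its pathway, and differed by -0.26 ± 0.13 at day 42 (adjusted p = 0.179).

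Agtr1a, which encodes the receptor through which angiotensin II constricts vessels, was the member called lower at day 1, by a small margin. Its level there ranged from 6.43 to 7.02 in ligated ventricles with a median of 6.87. In sham ventricles it ranged from 6.93 to 8.03 with a median of 7.26. Ligated replicates 2 and 3 lay above the lowest sham array, so the groups overlapped, and sham replicate 2 was highest. The probe was detected on all 12 arrays, and the means of 6.79 ± 0.22 and 7.33 ± 0.41 (SD, n = 6 each) differed by -0.54 ± 0.17 (95% confidence interval -0.91 to -0.16, limma adjusted p = 0.0344), or 1.45-fold lower after ligation. The call held in 11 of 21 alternatives and was lost, among others, under median scaling (-0.30, adjusted p = 0.325), with array brightness as a covariate (-0.59, adjusted p = 0.0686) and without any 1 of 6 single arrays (ligated replicates 1, 4 or 6, sham replicates 2, 3 or 6). Median scaling raised the median of every gene list described here at day 1. For endothelial markers it went from 0.08 to 0.33 and for cardiomyocyte markers from -0.07 to 0.07.

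At day 6 Agtr1a stood at 6.55, 8.56, 6.86, 7.36 and 7.46 in ligated replicates 1 to 5. In sham ventricles it ranged from 6.75 to 7.54 with a median of 7.34. Ligated replicate 2 was the highest of the day and replicate 1 the lowest, so that the ligated group enclosed the sham group. The means of 7.36 ± 0.77 (SD, n = 5) and 7.27 ± 0.31 (SD, n = 6) differed by 0.09 ± 0.29 (limma adjusted p = 0.867), and by -0.21 without ligated replicate 2. At day 42 the level ranged from 5.10 to 7.05 in ligated ventricles, median 6.46, and from 6.17 to 6.86 in sham ventricles, median 6.62. The lowest value was ligated replicate 1, which with 1 other ligated array was not detected. The difference was -0.23 ± 0.26 (adjusted p = 0.565), and 0.023 without that replicate. The genes most like Agtr1a over 35 arrays were Tmem132e, Pcyox1 and Ramp1, with day-centred r of 0.627, 0.611 and 0.611 among 5963 probes, lower values than those of the genes most like Ace. None of the 3 was called on any day.

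Edn1, the gene of the endothelin-1 precursor, was low in all groups and did not pass the test on any day. At day 1 its level ranged from 5.45 to 6.61 in ligated ventricles with a median of 6.08, detected on 4 of 6 arrays. In sham ventricles it ranged from 4.93 to 6.23 with a median of 5.40, detected on 1 of 6. Sham replicates 1 and 2 lay within the ligated range and the other 4 sham arrays lay below it. The difference was 0.60 ± 0.23 (95% confidence interval 0.11 to 1.09, limma unadjusted p = 0.0199, adjusted p = 0.0624). The probe reached the 5 arrays of the filter through 4 ligated arrays and 1 sham array. It thus entered the test mainly through the group in which it was high. The sham signal was mostly not above background, so the size is that of signals. Edn1 passed in 3 of 20 alternatives (limma adjusted p from 0.0183 to 0.213). The lowest value came without sham replicate 2, the only sham array with detection. Without that array the probe would not have met the filter of 5 arrays.

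At day 6 Edn1 stood at 7.06, 6.72, 5.94, 6.30 and 6.71 in ligated replicates 1 to 5, all detected. In sham ventricles it ranged from 5.34 to 6.32 with a median of 5.82, detected on 2 of 6 arrays. Ligated replicates 1, 2 and 5 lay above every sham array and replicates 3 and 4 lay within the sham range. The means of 6.55 ± 0.43 (SD, n = 5) and 5.86 ± 0.39 (SD, n = 6) differed by 0.68 ± 0.22 (95% confidence interval 0.20 to 1.16, limma unadjusted p = 0.00889, adjusted p = 0.0635). The 5 ligated arrays alone met the filter, and most sham arrays were again not above background. The difference was 0.90 within positions A to F and 0.58 within positions G to L, and with position as a block it was 0.72 (adjusted p = 0.0358). At day 42 the signal ranged from 4.93 to 6.23 in ligated and from 4.97 to 5.69 in sham ventricles, with 1 of 6 and 0 of 6 arrays detected, and Edn1 was not tested there. The ligation difference moved by -0.72 ± 0.33 from day 6 to day 42 (adjusted p = 0.173) and by -0.64 ± 0.33 from day 1 to day 42 (adjusted p = 0.195).

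Ece1, the protease that makes active endothelin-1, was detected on all 35 arrays and lay above sham by a small amount on each day without passing the test. At day 1 its level ranged from 8.96 to 9.52 in ligated ventricles with a median of 9.16, and from 8.90 to 9.19 in sham ventricles with a median of 9.03. The groups overlapped, and the difference was 0.16 ± 0.10 (limma adjusted p = 0.237). Under median scaling, which raised the median of every gene list at that day, it was 0.42 (limma adjusted p = 0.0287). At day 6 it stood at 9.75, 9.62, 9.61, 9.74 and 10.05 in ligated replicates 1 to 5, against 9.33 to 9.47 in sham ventricles with a median of 9.41. All 5 ligated arrays lay above all 6 sham arrays, as was so for 4.22% of probes in this direction. The means of 9.75 ± 0.18 (SD, n = 5) and 9.40 ± 0.06 (SD, n = 6) differed by 0.35 ± 0.11 (95% confidence interval 0.12 to 0.58, limma unadjusted p = 0.00623, adjusted p = 0.0527). Within positions A to F the difference was 0.26 and within G to L it was 0.42.

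At day 42 Ece1 ranged from 9.07 to 9.51 in ligated ventricles with a median of 9.20 and from 8.55 to 9.15 in sham ventricles with a median of 8.99. Sham replicates 1 and 2 were lowest, and sham replicate 6, at 9.15, lay above 3 ligated arrays. The difference was 0.33 ± 0.13 (95% confidence interval 0.06 to 0.60, limma unadjusted p = 0.0198, adjusted p = 0.0851). Under median scaling, which moved the median of all probes to -0.47 at that day, it was -0.19. The ligation differences of Ece1 on the 3 days did not pass the test against each other (0.19 from day 1 to 6, -0.02 from day 6 to 42 and 0.17 from day 1 to 42, lowest limma adjusted p = 0.461).

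**Figure D3:**
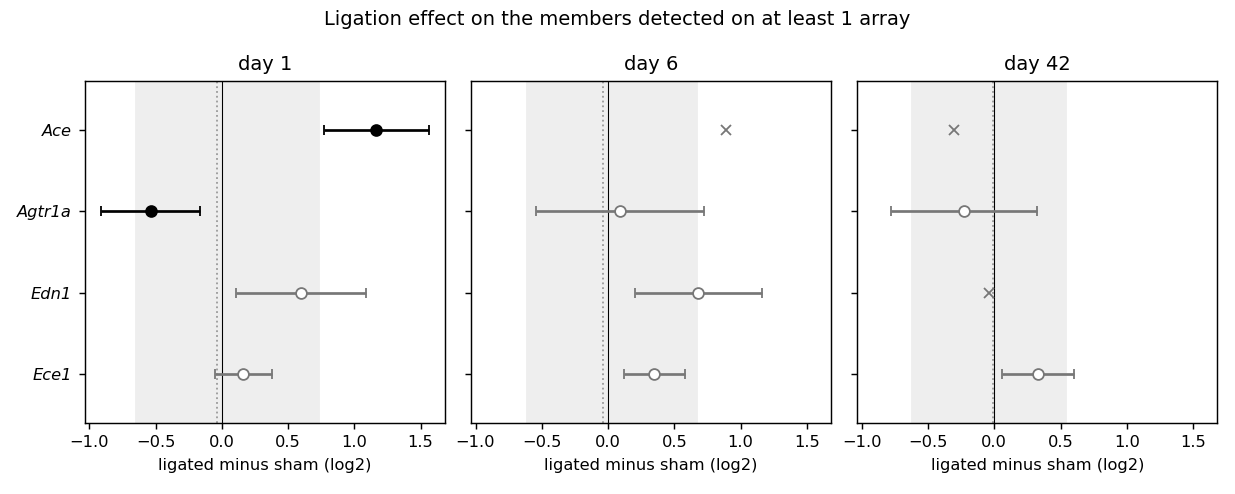
Ligated minus sham log2 level (horizontal axis) of the 4 members detected on at least 1 array, at days 1, 6 and 42, with 95% confidence intervals from limma; filled points passed the adjusted threshold, open points did not, crosses are signal differences of probes that did not enter the test, the grey band spans the 5th to 95th percentile of all tested probes and the dotted line is their median. Of the members, only Ace (1.17) and Agtr1a (-0.54), both at day 1, are filled.

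Around the 8 members, wider lists of the same systems were examined. Of 15 enzymes and substrates of the renin-angiotensin system 13 had a probe, and Agt, Ctsg, Lnpep and Mme were detected on no array. Of the 7 tested at day 1, Ace and Anpep rose and none fell, with a median of 0.32, where 12.9% of all tested genes rose, 16.2% fell and the median was -0.03. Anpep, the aminopeptidase that trims angiotensin III, was 6.80 to 8.35 in ligated ventricles (median 7.70) and 6.31 to 7.23 in sham ventricles (median 6.84), with overlap. It was higher by 0.77 ± 0.23 (limma adjusted p = 0.0258), a call lost with array brightness as a covariate (0.52, adjusted p = 0.155). Atp6ap2, an accessory subunit of the vacuolar proton pump, differed by 0.32 at day 1, 0.34 at day 6 and -0.14 at day 42 without passing. Cma1, a mast cell chymase that can also form angiotensin II, differed by -0.27 at day 1 and -0.09 at day 42 without passing. Thop1, an oligopeptidase that shortens angiotensin I, differed by 0.35 at day 1, 0.16 at day 6 and 0.31 at day 42 without passing. Of 7 tested at day 6 only Enpep, the aminopeptidase that acts on angiotensin II, was called: it was lower by 0.54 on the log2 scale in ligated ventricles (5.44 to 6.17, 1 of 5 arrays detected) than in sham ventricles (6.17 to 6.70, 6 of 6 detected), with adjusted p = 0.0345 in limma. It entered the test mainly through the sham arrays, where it was high, and the ligated signal was mostly not above background. The groups met at 6.17, and the call held in 7 of 20 alternatives. Of 7 tested at day 42 only Nln, neurolysin, was called, lower, with a ligated mean signal of 5.44 (0 of 6 arrays detected) against 5.98 in sham ventricles (5 of 6, adjusted p = 0.024), and no fold is given for a level that was not above background. It entered the test only through the sham arrays. With array brightness as a covariate the signal difference was -0.15 (limma adjusted p = 0.863), where 3 probes of all were called. Of all genes tested, 5.89% rose and 5.79% fell at day 6, and 6.82% and 7.82% at day 42.

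Among 14 receptors and regulators of angiotensin and its steroid arm, 13 had a probe and 9 were detected on no array, Agtr1b, Mas1 and the aldosterone synthase gene Cyp11b2 among them. At day 1, 4 were tested and 2 fell, Agtr1a and Nr3c2, and none rose, where 16.2% of all tested genes fell. Nr3c2, the mineralocorticoid receptor that aldosterone binds, ranged from 6.10 to 6.83 in ligated (median 6.27) and 6.66 to 6.95 in sham ventricles (median 6.72), a difference of -0.39 ± 0.13 (limma adjusted p = 0.0318). This call was lost under median scaling (-0.18, limma adjusted p = 0.294) and with array brightness as a covariate (-0.26, adjusted p = 0.170). Under median scaling no gene of the list passed. The list median moved up from -0.36 to -0.12, and those of the other lists moved up too. At day 6 none of 4 passed. At day 42 Agtrap, whose protein binds the type 1 receptor and promotes its uptake into the cell, was higher by 0.37 ± 0.12 (7.68 to 8.26 in ligated against 7.46 to 7.86 in sham ventricles, overlapping, limma adjusted p = 0.0488). Under median scaling it was -0.14 (adjusted p = 0.399), above the median of all probes, which that scaling moved to -0.47. Mtus1, which encodes a protein that binds the type 2 receptor, differed by -0.33, -0.36 and -0.33 at days 1, 6 and 42 without passing. Of 9 endothelin genes, 5 had a probe and only the members Edn1 and Ece1 were detected.

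**Figure D4:**
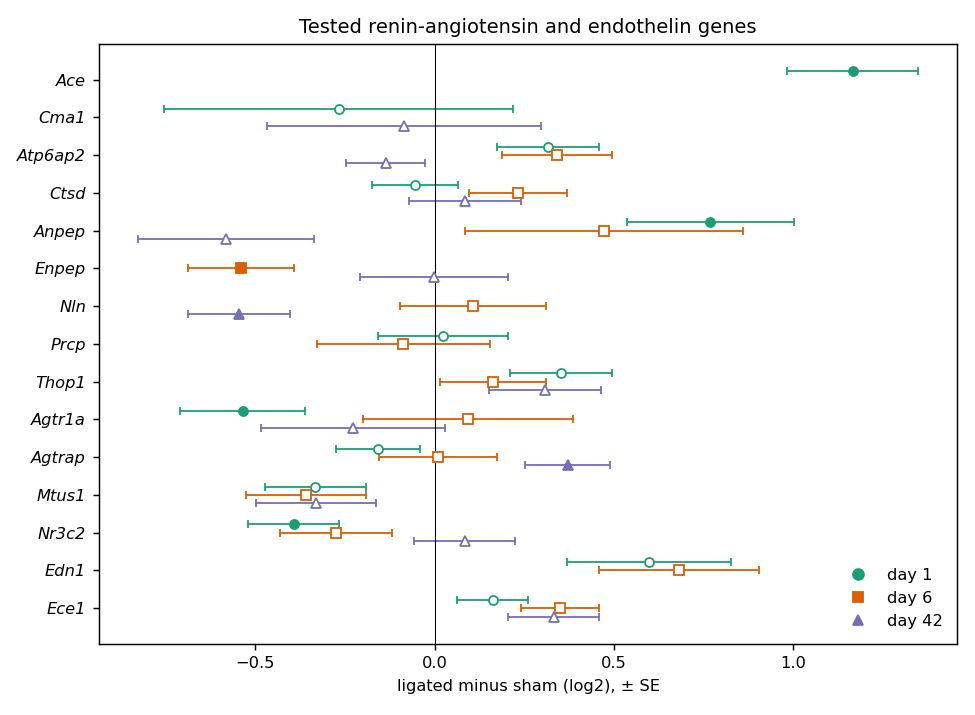
Ligated minus sham log2 level ± SE (horizontal axis) of every tested gene of the 3 renin-angiotensin and endothelin lists, with circles for day 1, squares for day 6 and triangles for day 42; filled points passed the limma adjusted threshold of 0.05 and open points did not. Filled points lie on both sides of 0, from Nln at day 42 and Enpep at day 6 on the left to Ace at day 1 (1.17) on the right.

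The G protein pathway through which both type 1 angiotensin and endothelin receptors signal was described by a list of 30 genes for G protein subunits, phospholipases, protein kinases C, receptor kinases and other kinases. At day 1, 5 of 21 tested rose and 1 fell, with a median of 0.08, beside 12.9% and 16.2% of all genes. Rock2, a kinase that promotes contraction of smooth muscle, was higher by 0.71 ± 0.17 (limma adjusted p = 0.00852). Jak2 was 8.18 to 9.58 in ligated (median 9.44) and 8.12 to 8.47 in sham ventricles (median 8.31), higher by 0.82 ± 0.22 (adjusted p = 0.0148). Grk5, a kinase that desensitises G protein-coupled receptors and drives growth signalling in heart muscle cells, was 7.89 to 8.82 in ligated (median 8.73) and 7.70 to 8.22 in sham ventricles (median 7.84), higher by 0.63 ± 0.16 (adjusted p = 0.012). Gna11 and Prkca were higher by 0.35 and 0.28. Prkce, a protein kinase C of heart muscle cells, was 8.47 to 9.63 in ligated (median 8.97) and 9.60 to 9.89 in sham ventricles (median 9.64), a difference of -0.71 ± 0.17 (adjusted p = 0.00774). The calls of Rock2, Jak2, Grk5 and Prkce each held in 20 of 21 alternatives, that of Gna11 in 11 and that of Prkca in 10. With array brightness as a covariate none of the 5 higher calls remained, where 1199 probes of all were called against 2368 without it. The differences were then 0.55 for Rock2, 0.63 for Jak2, 0.52 for Grk5, 0.35 for Gna11 and 0.32 for Prkca (limma adjusted p from 0.0549 to 0.0916), and 2 genes fell. Under median scaling 6 rose and none fell, and the list median moved from 0.08 to 0.34.

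At day 6, 2 of 23 tested genes of that pathway rose and 1 fell, with a median of -0.02, beside 5.89% and 5.79% of all genes. Prkcd, a protein kinase C also found in immune cells, was 8.85 to 9.56 in ligated (median 9.34) and 8.51 to 8.82 in sham ventricles (median 8.68) without overlap, higher by 0.61 ± 0.13 (limma adjusted p = 0.0135). Jak2 was higher by 1.14 ± 0.31 (adjusted p = 0.034), with ligated arrays from 8.17 to 10.15. Rgs4, which shortens signalling through Gq, was 8.36 to 9.36 in ligated (median 8.79) and 9.43 to 9.73 in sham ventricles (median 9.52) without overlap, a difference of -0.68 ± 0.18 (adjusted p = 0.03). Under median scaling these 3 were 0.55, 1.09 and -0.71 and did not pass (adjusted p = 0.224, 0.242 and 0.195). Their calls held in 20 of 21 alternatives for Prkcd, 9 of 21 for Jak2 and 11 of 21 for Rgs4. At day 42 only Plcb1, a phospholipase C that Gq activates, was called of 20, where 7.82% of all genes fell, at -0.75 ± 0.24 (limma adjusted p = 0.047). With array brightness as a covariate it was -0.07 (adjusted p = 0.968), where 3 probes of all were called.

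Genes of the opposing nitric oxide and prostanoid vasodilators gave 1 gene higher and 1 lower of 10 tested at day 1, 2 higher and 1 lower of 10 at day 6, and 1 higher and 1 lower of 9 at day 42. The shares of all genes were 12.9% and 16.2%, 5.89% and 5.79%, and 6.82% and 7.82%. Ptgis, prostacyclin synthase, was higher on each day, by 0.50, 0.56 and 0.81. Its call held in 19 of 21 alternatives at day 1, 10 of 21 at day 6 and 19 of 21 at day 42. With array brightness as a covariate it was 0.46 at day 1 (limma adjusted p = 0.0814) and 0.17 at day 42 (adjusted p = 0.894, where 3 probes of all were called). Under median scaling it was 0.46 at day 6 (adjusted p = 0.449) and 0.30 at day 42 (adjusted p = 0.158). None of these 4 passed. At day 6 Ptgs2, the inducible cyclooxygenase, was higher by 2.55 ± 0.54 (6.90 to 10.72 in ligated against 5.06 to 5.91 in sham ventricles, limma adjusted p = 0.0126). Detection was reached by 5 of 5 ligated arrays but by 1 of 6 sham arrays, so that the probe entered the test mainly through the ligated arrays and the sham signal was mostly not above background. Nos3, the endothelial nitric oxide synthase, was 7.66 to 10.24 in ligated and 10.04 to 10.54 in sham ventricles (median 10.27), a difference of -1.40 ± 0.36 (adjusted p = 0.0271). The call of Nos3 held in 12 of 21 alternatives. Cav1, caveolin, was lower at day 1 by both of its probes (-0.86 and -0.90). At day 42 both were again called lower (-0.58 and -0.91, limma adjusted p = 0.0445 and 0.0239). At day 6 1 of them was called lower (-0.71, adjusted p = 0.0443), in 8 of 21 alternatives. With array brightness as a covariate both day 42 calls were lost (limma adjusted p = 0.222 and 0.345), where 3 probes of all were called. The differences themselves were then further below 0, at -1.03 ± 0.28 and -1.12 ± 0.42 (SE).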

How the data were processed

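Total RNA was extracted with a column kit for fibrous tissue and amplified, per the labels' protocols. BeadStudio 3.3 and GenomeStudio are named in the submitters' processing notes, with no step given. The deposited tables hold, per the file headers, each probe's mean scanner intensity, its detection p-value and, as another value, its number of beads. The intensities are not normalised, to judge by their values. The series matrix holds intensity that the authors normalised by a method not given in the sources used here; it served as an alternative. For day 6, 1 further array (4 columns) has no matching label and stayed out.

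Intensities were corrected with limma 3.58.1 (R 4.3.3) by normexp, with negative controls inferred from detection p-values and an offset of 16, quantile normalised within each day and put on the log2 scale. Probes detected at p under 0.01 on 5 or more arrays of the day were fitted with lmFit and eBayes. Differences between days were fitted on all 35 arrays over probes that passed on at least 1 day. Where 1 group had no detected array, the fold is a bound against the lowest detected signal. Groups follow the labels, which give no shared day or litter; p-values measure the spread between these samples. Precision depends on how many arrays a group has.

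Gene names come from the platform annotation, which can be old: 13793 of 22523 probes have 1 symbol and 8730 have none. Every member's probe was described. Up to 6 called genes per pathway list and day, uncalled genes of the 2 systems, and the 3 genes most correlated with each called member could be named. Where a gene had several probes, the brightest stood for it. The members and lists were chosen with earlier results of these data known. Alternatives changed background correction, scaling, detection filter, spread estimate, brightness, position and replicate blocks, and left out each array in turn.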

Additional observations from a re-analysis of the deposited data

Results flagged for a closer look

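The signal difference of Ace between ligated and sham ventricles was called as different between days by a test of the difference itself. It was lower at day 42 than at day 6, by -1.20 on the log2 scale (SE 0.27, limma adjusted p = 0.00681), and lower at day 42 than at day 1, by -1.47 (SE 0.26, adjusted p = 0.00498). In the ligated groups 6 of 6 arrays detected Ace at day 1, 2 of 5 at day 6 and 0 of 6 at day 42, and in the sham groups 0 of 6, 0 of 6 and 2 of 6 did. The sizes therefore rest mostly on signals not above background, and the probe entered the fit only through the ligated arrays of day 1. With array brightness as a covariate the values were -0.88 (adjusted p = 0.0764) and -1.05 (adjusted p = 0.432). Each day was on its own BeadChip, so that day and BeadChip cannot be told apart. By Dixon's test at the 95% level no array stood apart in the 20 groups of arrays screened, those of Agtr1a with ligated replicate 1 at day 42 (5.10) and ligated replicate 2 at day 6 (8.56) included, although leaving out either turned the sign of the difference.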

How the results depend on the processing

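Ace at day 1 was called in all 20 alternatives that tested it (0.57 to 1.66, adjusted p 3.71e-05 to 0.00935), but it was tested only through its ligated arrays and not where detection on every array was required, so this says little of stability. Agtr1a at day 1 was called in 11 of 21. Of the 2368, 958 and 1252 probes called at days 1, 6 and 42, the count became 1199 at day 1 and 3 at day 42 with array brightness as a covariate. At day 6 it was 132 under median scaling, 562 with no filter and 1634 with 1 spread over all groups, and at day 42 it was 4710 under median scaling, 1.72% of them higher. Leaving out 1 array gave 1609 to 2964, 535 to 1199 and 666 to 1774. For the differences, 73, 676 and 775 probes were called from day 1 to 6, 6 to 42 and 1 to 42. With no filter the count was 36 for day 1 to 6 and 460 for day 1 to 42, with brightness 210 for day 6 to 42 and 0 for day 1 to 42, and under median scaling 4708 for day 1 to 42 (0.701% higher). Leaving out 1 array gave 29 to 133, 395 to 919 and 197 to 1159. Members called at day 1 were 1 with no filter, with detection on every array, with 1 spread and with brightness, and 1 to 3 without 1 array. At day 6 they were 1 without background correction, with detection on every array and with brightness (Ece1), 2 with no filter (Ece1, Ace), 2 with 1 spread (Ece1, Edn1), 1 with position as a block (Edn1) and 0 to 2 without 1 array. At day 42 they were 1 under median scaling (Agtr1a) and with 1 spread (Ece1), and 0 without any 1 array. For both differences to day 42, 0 members passed with detection on every array or with brightness, and 2 passed from day 1 under median scaling (Ece1, Ace). Under median scaling directions turned for Ece1 (-0.19) and Agtrap (-0.14) at day 42, for Edn1 (-0.00110) and Ece1 (-0.12) from day 1 to 6, and for Agtr1a (-0.34) and Ece1 (-0.61) from day 1 to 42. In the series matrix they turned for Ace from day 1 to 6 (0.054) and Ece1 from day 6 to 42 (0.00699). Leaving out 1 array crossed 0 for Agtr1a at day 6 (-0.21 to 0.30; below 0 without ligated replicate 2 or sham replicate 3) and day 42 (-0.37 to 0.023; above 0 without ligated replicate 1), Edn1 from day 1 to 6 (-0.077 to 0.24) and Ece1 from day 6 to 42 (-0.086 to 0.056). The untested Ace signal difference at day 6 was 0.40 without background correction and 1.71 in the series matrix. The cause of these changes was not tested. Same-numbered samples did not deviate together (r -0.14 to 0.19 at day 1, -0.27 to 0.24 at day 6 and -0.20 to 0.34 at day 42), and 2 of 6, 1 of 5 and 2 of 6 pairs were most alike with their own number. With the replicate block, 315 probes were called at day 6, 31 for day 1 to 6 and 372 for day 6 to 42, and Edn1 at day 1 had a limma adjusted p of 0.0347. Weak signal limits Ace, Edn1, Agt and Agtr2.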
